A study of Arabidopsis thaliana with 39 samples.

Results

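The genes described here were raised by methylglyoxal (MG) in wild-type Arabidopsis seedlings and, by the threshold given next, not in the glyI2 mutant. They were chosen by measured values: the change in mean counts per 1000000 counts of a library (CPM) from mock to MG, on a log2 scale after adding 1 CPM to each group mean, had to be at least 1.2 in wild type (WT) and at most 0.3 in glyI2. Of 32678 genes in the tables, 569 met the WT threshold, and 30 of those also met the glyI2 threshold. The other 539 were above the glyI2 threshold. Of the 30 genes, 17 are named here by a symbol or synonym from the reference gene table and 13 by their locus identifier.

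The study measured polyadenylated RNA of whole Arabidopsis thaliana seedlings in 36 libraries, 3 for each of 12 groups. All seedlings were 5 days old and grown on half-strength solid medium. The 4 genotypes were WT, the glyI2 mutant, and lines #1 and #5 carrying 35S::GLYI2 35S::GLYII4, named OE1 and OE5. Each genotype was left untreated (mock), given 100 mM NaCl for 12 h or given 200 µM MG for 12 h. The 35S promoter is active in most plant cells, and each overexpression label names 1 line. The labels name no separate cultures, so each p-value measures the spread between libraries, which may be technical. In whole seedlings, fewer cells of a type and less RNA per cell cannot be told apart.

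MG is a reactive by-product of sugar breakdown. Glyoxalase I joins it with glutathione into a conjugate, and glyoxalase II cleaves that to lactate and returns the glutathione. GLYI2 is a gene of the first enzyme and GLYII4 of the second. Plants respond to excess MG with genes of detoxification and protein repair, and MG accumulates in salt-stressed tissue.

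Total counts were between 21024878 and 22383131 per library. AT1G08110, taken here as GLYI2, was at 5.85 to 9.51 CPM in the glyI2 libraries and 35.4 to 76.4 CPM in WT. It was at 16.1 to 38.7 CPM in OE1, mostly below the WT range, and at 37.5 to 69.7 CPM in OE5. The deposited counts thus do not show it raised in the OE lines. AT2G43430, taken here as GLYII4, was at 6.86 to 16.5 CPM in WT and glyI2, at 20.8 to 43.8 CPM in mock and NaCl of the OE lines and at 184 to 304 CPM in their MG libraries. In 7 libraries the morning clock gene CCA1 was between 0.180 and 2.59 CPM, against 14.3 to 92.9 CPM in the other 29. Each was replicate 3 of its group, and the groups were NaCl and mock of glyI2, OE1 and OE5 and also NaCl of WT. Of the 7, only glyI2 mock replicate 3 entered the choice of genes, which is given below with and without it.

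The median change of the 30 genes after MG, on the scale of the rule, was 1.49 in WT, 1.21 in OE1, 1.29 in OE5 and -0.04 in glyI2. The other 539 genes had medians of 1.88 in WT, 2.67 in glyI2, 1.81 in OE1 and 1.65 in OE5. After NaCl the 30 genes had medians of 0.02 in WT, 0.06 in glyI2, 0.08 in OE1 and 0.09 in OE5. The WT and glyI2 values after MG chose the genes and are a description.

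**Figure D1:**
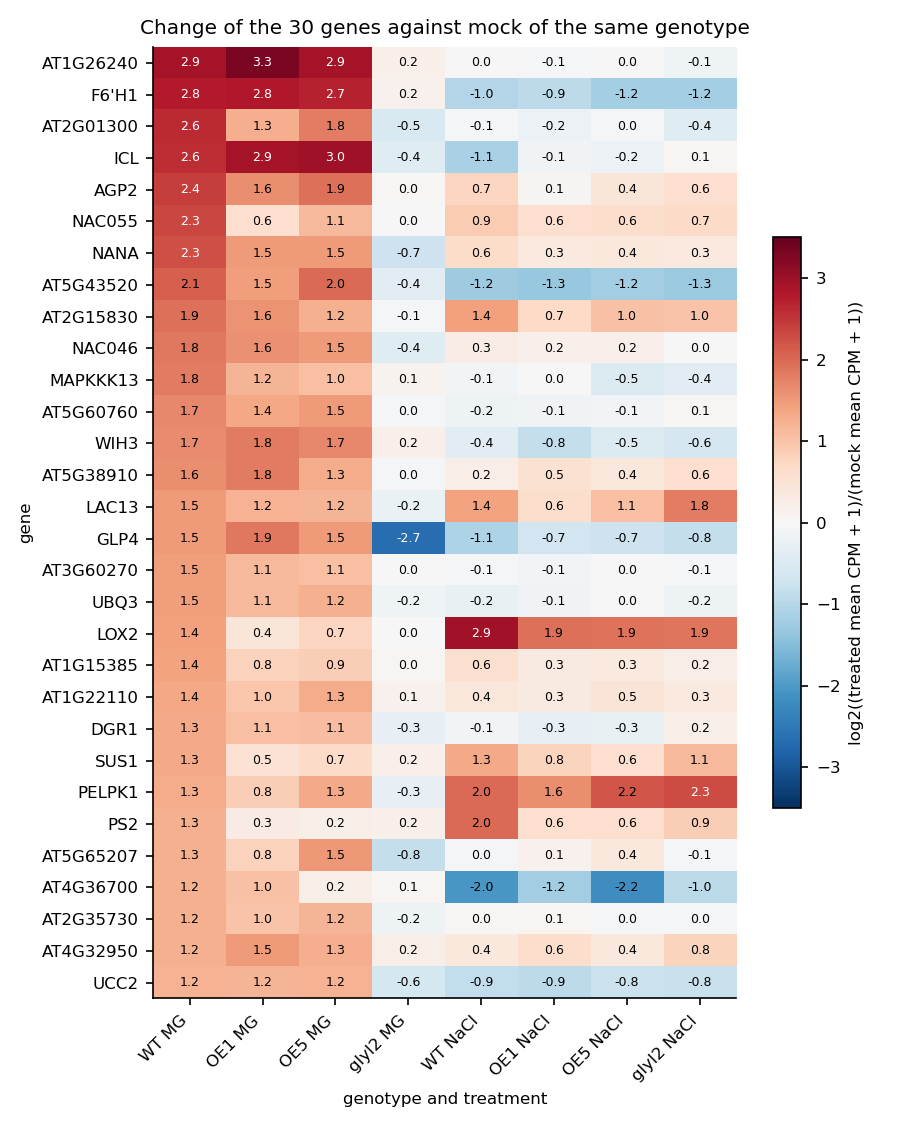
Change of each of the 30 genes (rows) against mock of its own genotype in the 8 treated groups (columns), as log2 of mean CPM plus 1, with 3 libraries per group. The MG columns of WT, OE1 and OE5 are red for most rows, the MG column of glyI2 runs from -2.68 for GLP4 to 0.22 for AT4G32950, and the NaCl columns are mixed.

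**Figure D2:**
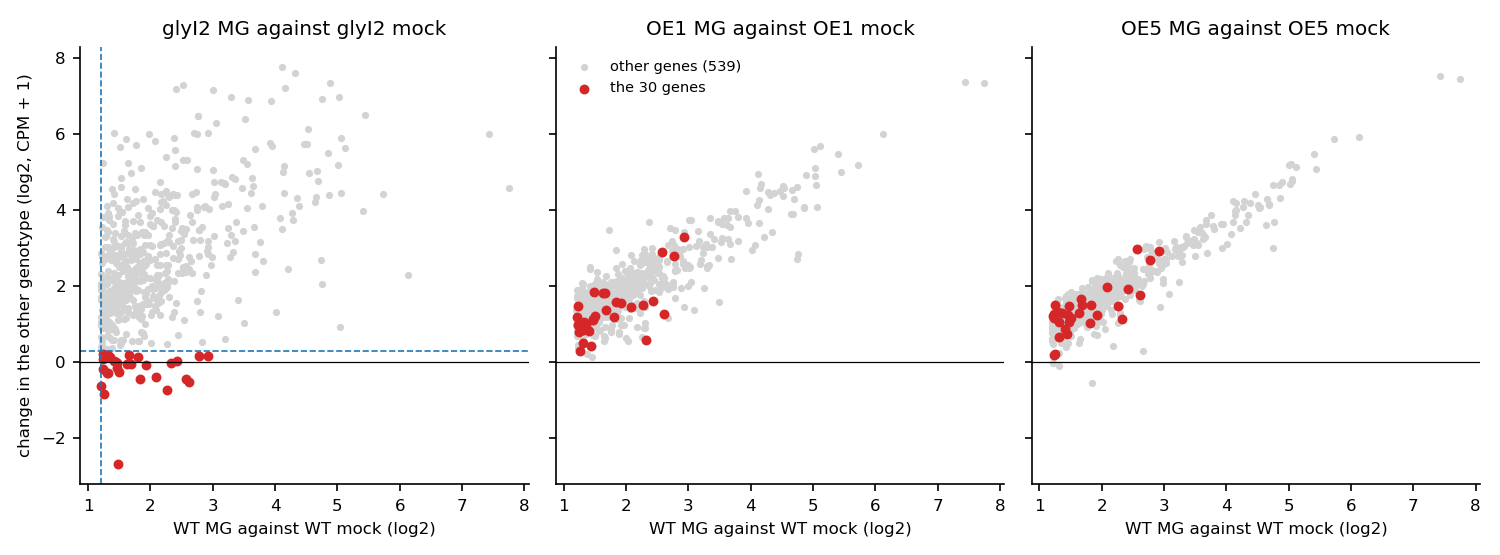
Change after MG in WT (horizontal, log2 of mean CPM plus 1) against the change in glyI2, OE1 and OE5 (vertical) for the 569 genes that met the WT threshold. The dashed lines are the thresholds of 1.2 and 0.3, the 30 genes are red, and in both OE panels they lie among the other 539.

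Among the regulators, NAC046 encodes a NAC transcription factor. It stood at 4.18, 5.45 and 5.35 CPM in WT mock and at 24.5, 19.1 and 17.57 CPM in WT MG. In glyI2 it stood at 7.04, 4.03 and 7.24 CPM in mock and at 4.07, 5.04 and 3.701 CPM after MG. The WT groups did not overlap, while the glyI2 groups did. The OE1 libraries went from 4.33, 5.44 and 6.99 CPM to 19.4, 23.4 and 14.1 CPM, and the OE5 libraries from 5.94, 4.53 and 6.04 CPM to 21.1, 14.9 and 16.3 CPM. NAC055, a NAC factor known from stress responses, was at 1.56, 3.17 and 2.33 CPM in WT mock and at 18.6, 10.6 and 18.3 CPM in WT MG. Its OE1 mock libraries held 1.31, 1.40 and 8.70 CPM and its OE1 MG libraries 4.85, 3.95 and 9.67 CPM, so those groups overlapped. The high mock value is in replicate 3, 1 of the libraries low in CCA1. MAPKKK13, a kinase of the mitogen-activated cascade family, was at 4.22, 3.73 and 4.71 CPM in WT mock and at 18.1, 16.8 and 16.9 CPM in WT MG. In glyI2 its mock libraries spread from 3.66 to 12.4 CPM and its MG libraries held 7.23, 8.16 and 8.50 CPM.

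Of the metabolic enzymes, F6'H1 makes the precursor of scopoletin and other coumarins. It stood at 28.1, 18.7 and 15.9 CPM in WT mock and at 209, 118 and 120 CPM in WT MG. In glyI2 it was at 17.57, 22.3 and 21.6 CPM in mock and at 29.7, 24.3 and 14.8 CPM after MG. All 9 MG libraries of WT, OE1 and OE5 were above every other library for this gene. The OE1 MG libraries held 170.3, 157 and 94.1 CPM and the OE5 MG libraries 168, 138 and 101 CPM. ICL, isocitrate lyase of the glyoxylate cycle, was at 13.5, 6.52 and 50.3 CPM in WT mock and at 136, 141 and 156 CPM in WT MG. Its glyI2 libraries held 20.1, 6.10 and 26.0 CPM in mock and 8.42, 2.84 and 26.8 CPM after MG. In OE1 it was at 13.1, 10.6 and 23.2 CPM in mock and at 81.2, 91.2 and 197 CPM after MG, and in OE5 at 16.2, 6.01 and 17.9 CPM in mock and at 107, 42.7 and 186 CPM after MG. Replicate 3 was the highest of its group in each of those 4.

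LOX2, a lipoxygenase of jasmonate synthesis, was at 109, 203 and 41.9 CPM in WT mock and at 288, 476 and 204 CPM in WT MG. In glyI2 the mock libraries held 92.4, 244 and 410 CPM and the MG libraries 236, 329 and 187 CPM, so the glyI2 groups overlapped. SUS1, a sucrose synthase, was at 25.3, 24.4 and 15.03 CPM in WT mock and at 57.7, 57.8 and 49.98 CPM after MG. PS2, a phosphatase gene induced by phosphate starvation, was at 2.204, 2.05 and 1.60 CPM in WT mock and at 6.80, 3.89 and 7.44 CPM after MG. In glyI2 mock PS2 was at 0.598, 1.59 and 5.83 CPM and in glyI2 MG at 2.24, 4.15 and 3.06 CPM. For PS2 and LOX2 the WT MG and glyI2 MG libraries overlapped. For the other 28 genes all WT MG libraries were above all glyI2 MG libraries, as for 7.46% of the genes tested, and these groups are among those that chose the genes.

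Several of the genes encode proteins of the cell wall. AGP2, an arabinogalactan protein, was at 39.8, 55.6 and 42.4 CPM in WT mock and at 235, 289 and 231 CPM in WT MG. In glyI2 it was at 60.6, 27.8 and 77.7 CPM in mock and at 60.8, 53.1 and 57.8 CPM after MG. LAC13, a laccase, was at 6.43, 8.34 and 6.12 CPM in WT mock and at 22.5, 26.2 and 15.97 CPM in WT MG, and its glyI2 MG libraries held 5.03, 5.88 and 7.58 CPM. PELPK1, a proline-rich wall protein, was at 76.2, 87.6 and 66.0 CPM in WT mock and at 178, 163 and 233 CPM in WT MG. DGR1, of the DUF642 wall proteins, was at 10.4, 14.3 and 9.27 CPM in WT mock and at 32.7, 30.03 and 26.6 CPM after MG. UCC2, a uclacyanin of the blue copper proteins, was at 226, 227 and 237 CPM in WT mock and at 573, 561 and 471 CPM after MG. In glyI2 UCC2 stood at 320.4, 153 and 213 CPM in mock and at 199, 145 and 104 CPM after MG, so the highest MG library was above the lowest mock library.

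GLP4, a germin-like protein, had its lowest levels in glyI2 MG. It was at 11.2, 7.78 and 10.1 CPM in WT mock and at 33.4, 37.7 and 15.6 CPM in WT MG. In glyI2 it was at 12.0, 8.35 and 7.33 CPM in mock and at 1.05, 0.326 and 0.411 CPM after MG. In the OE lines the MG libraries held 41.5, 51.0 and 15.67 CPM for OE1 and 35.9, 28.4 and 15.2 CPM for OE5, and replicate 3 was the lowest in WT, OE1 and OE5. GLP4 overlaps AT1G18975 in the reference table, F6'H1 overlaps PUT4 and AT5G65207 overlaps AT5G65205. With the strand setting of the counting not given in the sources used here, reads from a stretch shared by such a pair may not be told apart, and how many there are was not measured.

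For protein turnover, NANA encodes an aspartyl protease and UBQ3 a polyubiquitin. NANA was at 24.6, 18.3 and 20.2 CPM in WT mock and at 118, 114 and 83.6 CPM in WT MG. In glyI2 it was at 22.35, 23.9 and 35.5 CPM in mock and at 16.8, 17.63 and 13.8 CPM after MG, all below mock. NANA, GLP4 and AT2G35730 had all WT MG libraries above mock and all glyI2 MG libraries below mock, as had 0.183% of the genes tested, and these libraries chose the genes. UBQ3 was at 800, 702 and 998 CPM in WT mock and at 2281, 2343 and 2290 CPM in WT MG. In glyI2 it was at 1021, 625 and 869 CPM in mock and at 795, 757 and 712 CPM after MG. Polyubiquitin genes share near-identical repeats, so the counts of UBQ3 are uncertain. Per length, UBQ3 had the highest level of the 30 in WT MG at 1287 ± 18.7 FPKM (SD, n = 3), followed by UCC2 at 556 ± 58.3 and AGP2 at 368 ± 47.7. AT1G22110 had the lowest at 1.34 ± 0.0831 FPKM.

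The 13 genes named by locus identifier spanned the same range of change. AT1G26240 had the largest change in WT at 2.92. It held 0, 0.0932 and 0 CPM in WT mock and 6.71, 13.0 and 0.822 CPM in WT MG. In glyI2 it held 0.138, 0.141 and 0.0904 CPM in mock and 0.320, 0.280 and 0.183 CPM after MG. Every glyI2 MG library was thus above every glyI2 mock library, at 7, 6 and 4 counts against 3, 3 and 2. With 1 CPM added to each mean, its glyI2 change was 0.17, under the threshold. Its OE1 MG libraries held 6.80, 19.6 and 1.54 CPM and its OE5 MG libraries 9.60, 8.70 and 1.82 CPM. Replicate 3 was the lowest in WT MG, OE1 MG and OE5 MG. AT5G38910 was at 3.97, 1.97 and 0.639 CPM in WT MG, also with replicate 3 the lowest, and was listed at 0 in all 3 glyI2 MG libraries, where 3 counts over the group would be 0.0460 CPM. AT2G01300 was at 1.61, 1.96 and 1.96 CPM in WT mock and at 19.6, 15.1 and 14.5 CPM in WT MG, and its glyI2 MG libraries held 1.24, 1.03 and 1.65 CPM. AT5G43520 was at 5.33, 3.17 and 4.61 CPM in WT mock and at 31.2, 16.8 and 17.2 CPM in WT MG, and its glyI2 MG libraries held 3.39, 3.82 and 1.97 CPM.

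AT2G15830 was at 3.35, 5.41 and 3.75 CPM in WT mock and at 22.5, 19.5 and 14.01 CPM in WT MG, against 3.98, 4.94 and 3.84 CPM in glyI2 MG. AT5G60760 was at 3.63, 2.00 and 3.38 CPM in WT mock and at 14.2, 9.38 and 12.0 CPM in WT MG, against 2.88, 3.497 and 3.88 CPM in glyI2 MG. For these genes the WT MG libraries were above all WT mock and all glyI2 MG libraries. AT4G36700 was uneven in mock, at 2.89, 5.45 and 7.17 CPM in WT, 0.460, 13.2 and 0.0904 CPM in glyI2, 1.58, 5.95 and 0.0451 CPM in OE1 and 5.02, 10.6 and 0.0451 CPM in OE5. Its near-zero mock values in glyI2, OE1 and OE5 replicate 3 are in libraries low in CCA1. AT5G65207 was at 9.32, 7.64 and 12.0 CPM in WT mock and at 28.3, 17.64 and 27.4 CPM in WT MG, against 5.49, 4.29 and 5.07 CPM in glyI2 MG. The other 5 genes named by locus identifier (AT3G60270, AT1G15385, AT1G22110, AT2G35730 and AT4G32950) were at most 5.52 CPM in every WT library and at most 1.24 CPM in glyI2 MG.

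**Figure D3:**
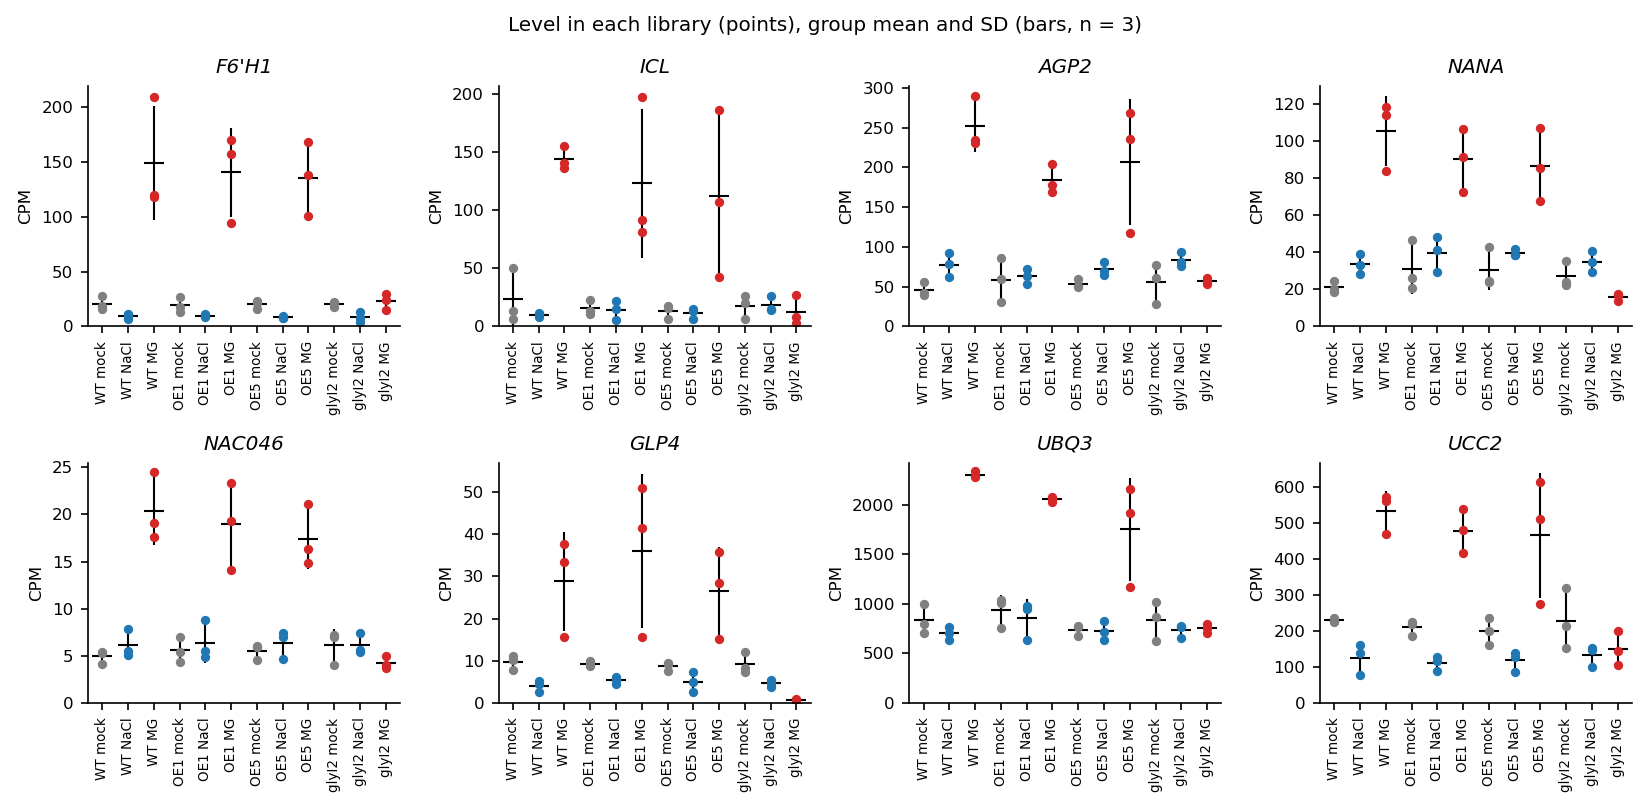
CPM of 8 of the genes in each library (points), with the group mean and SD (bars, n = 3), for mock (grey), NaCl (blue) and MG (red) in each genotype. For F6'H1 and UBQ3 every MG library of WT, OE1 and OE5 lies above every glyI2 library, and GLP4 is at 0.326 to 1.05 CPM in glyI2 MG.

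The WT threshold passed through a continuous range. Just inside it were UCC2 at 1.21, AT4G32950 at 1.23 and AT2G35730 at 1.23, and just outside it SRG3 at 1.18, FACT at 1.16 and AT2G16586 at 1.16. Just inside the glyI2 threshold were AT4G32950 at 0.22, WIH3 at 0.19 and SUS1 at 0.18, and just outside it AT1G56300 at 0.30, bHLH38 at 0.36 and TBL26 at 0.36.

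In the edgeR quasi-likelihood fit of all 36 libraries, 27 of the 30 genes were higher in WT MG than in WT mock at an adjusted p under 0.05, where 6.42% of the 20748 genes tested were. In glyI2, 0 were higher and 3 were lower after MG, where 14.4% and 14.8% of genes were. The change of glyI2 was below that of WT for 18 of the 30, where 1.5% of genes tested were. These 3 comparisons use the libraries that chose the genes and nothing is read from them.

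The glyI2 change depended on 1 mock library for part of the genes. Without glyI2 mock replicate 3, 24 of the 30 genes still met both thresholds, and AGP2, NAC055, MAPKKK13, LOX2, SUS1 and PS2 did not. Their glyI2 changes became 0.37 for AGP2, 0.35 for NAC055, 0.69 for MAPKKK13, 0.57 for LOX2, 0.52 for SUS1 and 0.99 for PS2. This library held 410 CPM of LOX2, 5.83 CPM of PS2 and 12.4 CPM of MAPKKK13, the highest of the 3 glyI2 mock libraries for each. By the threshold, the name "missing in glyI2" therefore does not hold for these 6 without that library. Their WT changes were 2.43 for AGP2, 2.33 for NAC055, 1.81 for MAPKKK13, 1.45 for LOX2, 1.315 for SUS1 and 1.255 for PS2. Leaving out each of the 12 WT and glyI2 libraries in turn kept 14 of the 30 in every case.

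**Figure D4:**
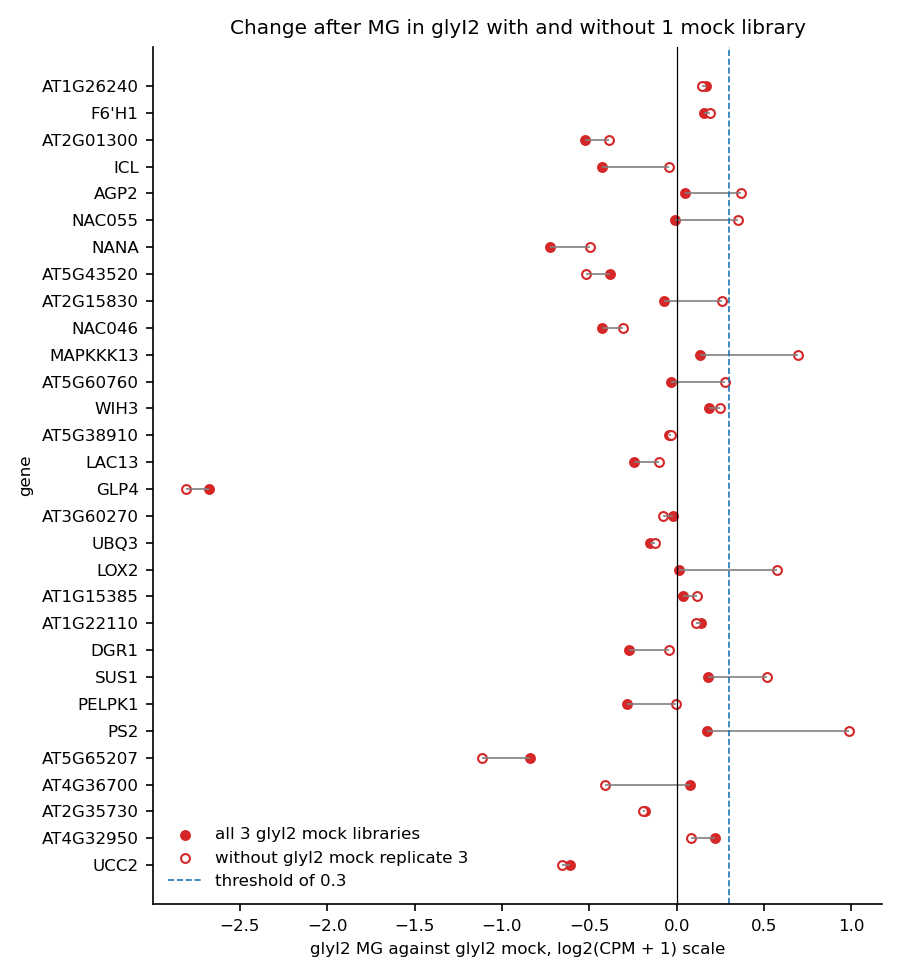
Change after MG in glyI2 (log2 of mean CPM plus 1) for each of the 30 genes with all 3 mock libraries (filled) and without mock replicate 3 (open), with the threshold of 0.3 dashed. AGP2, NAC055, MAPKKK13, LOX2, SUS1 and PS2 cross the threshold, PS2 to 0.99.

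The MG response of the 30 genes in the OE lines uses no library that chose them. In OE1, 23 of the 30 genes rose after MG (edgeR, adjusted p under 0.05) and 0 fell, where 5.85% of the genes tested rose and 3.94% fell. In OE5, 23 rose and 0 fell, where 4.74% rose and 4.09% fell. At an unadjusted p under 0.05, 25 in OE1 and 27 in OE5 were higher and 0 in either line lower, and DESeq2 called 23 and 24 higher and 0 lower. The median log2 fold change was 1.75 in OE1 and 1.78 in OE5, against -0.04 and -0.00 over all genes tested. Of the other 539 genes raised in WT, 88.9% rose in OE1 and 86.5% in OE5. The libraries of MG lay above those of mock without overlap for 23 of the 30 genes in each line, where 10.3% of the genes tested did so in OE1 and 9.01% in OE5. All 30 genes passed the filter on low counts, some of them by their MG libraries. Of the 24 genes with at least 1 CPM in OE1 mock, 17 rose, and of the 23 in OE5 mock, 16 rose.

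F6'H1 rose in OE1 with a log2 fold change of 2.97 ± 0.30 (SE, n = 3 per group; edgeR adjusted p = 1.82e-08) and in OE5 with 2.85 ± 0.30 (edgeR adjusted p = 4.07e-08). ICL rose by 3.15 ± 0.74 in OE1 and by 3.22 ± 0.74 in OE5, with edgeR adjusted p of 0.00387 and 0.00344. NAC046 rose by 1.85 ± 0.27 and 1.77 ± 0.27, WIH3 of the WINDHOSE family by 2.07 ± 0.31 and 1.99 ± 0.31, and NANA by 1.66 ± 0.28 and 1.65 ± 0.28. AGP2 rose by 1.77 ± 0.36 in OE1 and by 2.12 ± 0.36 in OE5. LAC13 rose by 1.45 ± 0.31 and 1.40 ± 0.31. UBQ3 rose by 1.22 ± 0.30 in OE1 and by 1.39 ± 0.30 in OE5, and GLP4 by 1.99 ± 0.47 and 1.68 ± 0.47. Of the genes named by locus identifier, AT5G60760 rose by 1.72 ± 0.29 in OE1 and by 1.94 ± 0.30 in OE5, and AT5G43520 by 1.78 ± 0.43 and 2.39 ± 0.44.

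In both lines 22 genes rose, with MAPKKK13 called in OE1 and not OE5 and AT5G65207 in OE5 and not OE1. NAC055, LOX2, DGR1, SUS1, PS2 and AT4G36700 passed in neither line with all libraries in the fit. Their values in OE1 were 0.97 ± 0.61 for NAC055, 0.55 ± 0.52 for LOX2, 1.2 ± 0.45 for DGR1, 0.57 ± 0.27 for SUS1, 0.62 ± 0.68 for PS2 and 1.24 ± 1.19 for AT4G36700. In OE5 they were 1.51 ± 0.61, 0.83 ± 0.52, 1.3 ± 0.45, 0.80 ± 0.27, 0.36 ± 0.67 and 0.34 ± 1.15 in that order. NAC055, LOX2, SUS1 and PS2 are also among the 6 that depended on glyI2 mock replicate 3, and their OE mock replicate 3 libraries, also low in CCA1, were the highest of their groups. Without the 7 libraries low in CCA1, NAC055 passed at 2.09 in OE1 and 2.45 in OE5 (edgeR adjusted p = 0.0142 and 0.00301) and PS2 at 1.77 and 1.17 (edgeR adjusted p = 0.000357 and 0.00864). SUS1 at 1.05 and MAPKKK13 at 1.65 passed there in OE5 (edgeR adjusted p = 0.0207 and 0.0161). In the fit with replicate blocks, MAPKKK13 and NAC055 passed in OE5 at 1.29 and 1.61 (edgeR adjusted p = 0.0167 and 0.0449). DGR1 passed in OE1 at 1.21 with only the compared groups in the fit (edgeR adjusted p = 0.0253). Without OE5 MG replicate 2, DGR1 at 1.73, MAPKKK13 at 1.72 and SUS1 at 0.97 passed in OE5 (edgeR adjusted p = 0.00518, 0.00775 and 0.0297). Without OE5 mock replicate 3, MAPKKK13, NAC055 and SUS1 passed there. DESeq2 called MAPKKK13 in OE5 at 1.31 (adjusted p = 0.0395).

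The test of the difference between the MG responses of OE1 and OE5 called 0 of the 30 genes in either direction, and 0.0% of all genes tested (edgeR). At an unadjusted p under 0.05 the count was 0, and DESeq2 also called 0. The differences ran from -0.83 for AT1G26240 to 0.90 for AT4G36700, with SE of 2.23 and 1.65, so differences of that size cannot be resolved for such genes. For F6'H1 the difference was 0.12 ± 0.39, for NANA 0.01 ± 0.38 and for NAC046 0.08 ± 0.37.

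Of the 23 calls in OE1, 16 held under every alternative setting. In OE5 15 of 23 did, and AT5G38910 held in the 11 settings of 12 that gave it a value, its counts being too low for the filter with only the compared groups in the fit. In OE1, MAPKKK13 lost its call without mock replicate 1 or 2 or MG replicate 3 (adjusted p of 0.0926 to 0.167), AT1G22110 without mock replicate 2 or MG replicate 3, AT2G01300 without mock replicate 2 and AT4G32950 without MG replicate 2. PELPK1 lost it without any of the OE1 mock and MG libraries except mock replicate 2 (edgeR adjusted p of 0.051 to 0.236), and UCC2 without any one of the 6 or with RLE scaling (0.0502 to 0.177). In OE5, GLP4 and AT4G32950 lost their calls without mock replicate 2 or 3 or MG replicate 1, AT2G15830 without mock replicate 1 or 2 or MG replicate 1 and AT1G22110 without MG replicate 3. AT5G65207 and UCC2 lost theirs in OE5 without mock replicate 2 or 3 or MG replicate 1 or 3 (adjusted p up to 0.377 and 0.21), and AT5G65207 also with RLE scaling or no filter. Without the 7 libraries low in CCA1, AT1G22110, PELPK1 and UCC2 also lost their calls in OE1, and GLP4, AT4G32950, AT5G65207 and UCC2 in OE5, with 21 and 23 of the 30 called there in all. The log2 fold change of AT1G22110 in OE1 was 2.38 without them and 2.33 with all libraries, and that of GLP4 in OE5 was 1.56 and 1.68. With only the compared groups in the fit, PELPK1 and AT4G32950 also lost theirs in OE1, and AT2G15830, AT1G22110, AT5G65207 and UCC2 in OE5. UBQ3 was lost in OE1 without the libraries low in CCA1 (0.0625) and in OE5 with only the compared groups in the fit (0.0753).

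**Figure D5:**
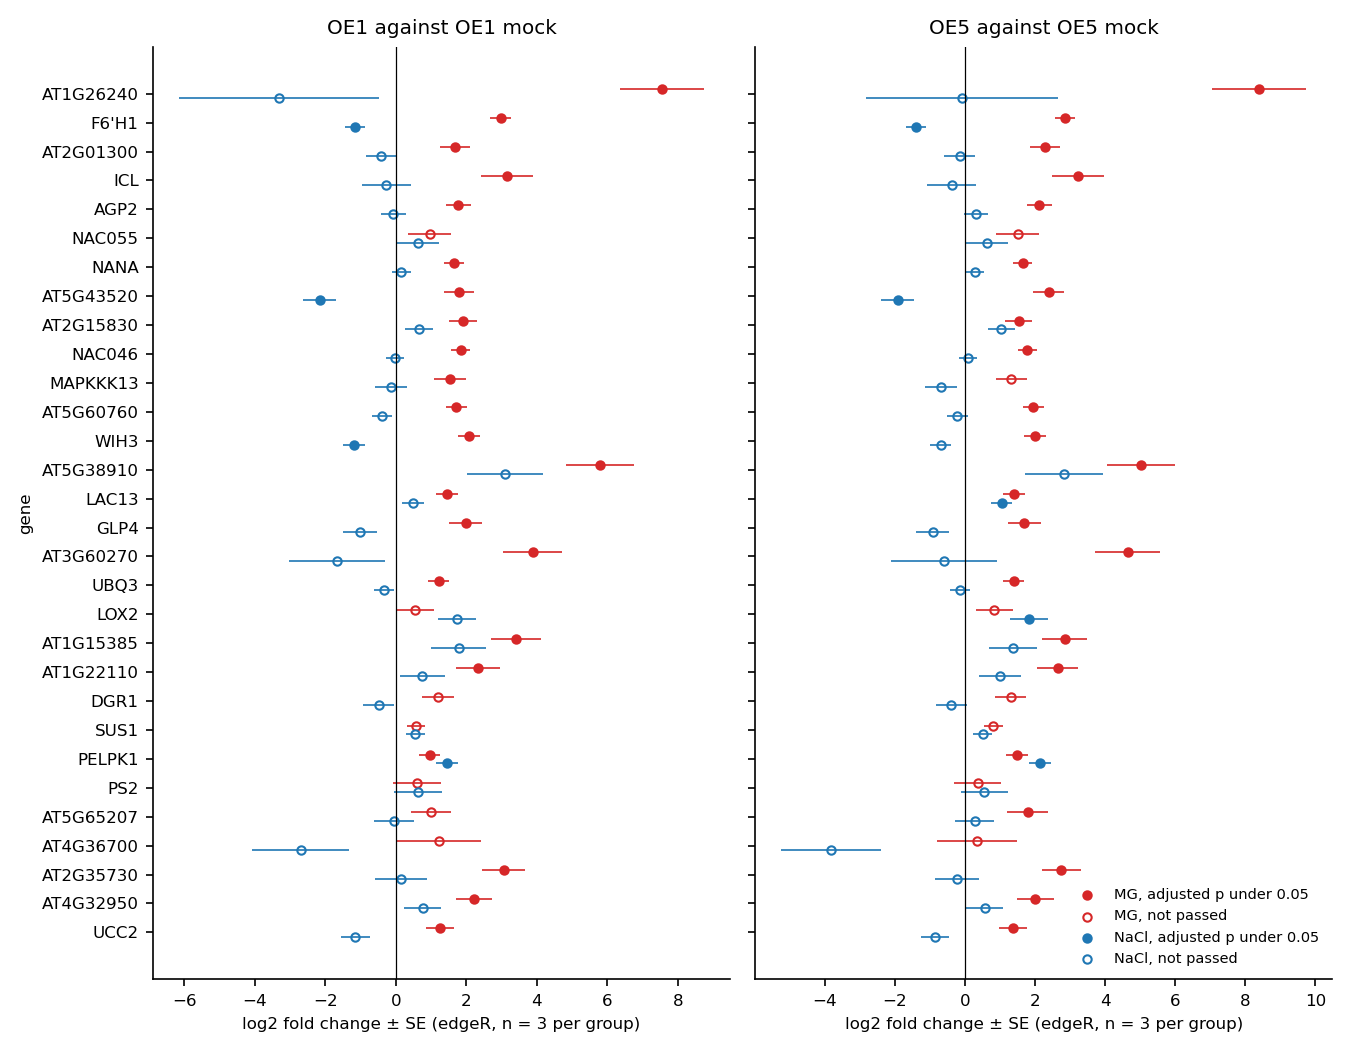
Log2 fold change ± SE (edgeR, n = 3 per group) of the 30 genes in OE1 and OE5 after MG (red) and NaCl (blue) against mock, with filled points at an adjusted p under 0.05. After MG 23 points are filled on the right in each panel, and after NaCl 4 and 5 points are filled, on both sides of 0.

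The MG libraries of all 3 genotypes other than glyI2 stood apart for many of the genes. For 25 of the 30, all 9 were above the 3 of glyI2 MG, where 4.71% of the genes tested were. For 12 of the 30 they were above all of the other 27 libraries, where 0.222% were. Since WT and glyI2 libraries chose the genes, these counts are partly fixed by the choice.

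After NaCl, 4 of the 30 genes changed in OE1 and 5 in OE5 (edgeR, adjusted p under 0.05). In OE1, PELPK1 rose and F6'H1, AT5G43520 and WIH3 fell, where 2.98% of the genes tested rose and 2.35% fell. In OE5, PELPK1, LAC13 and LOX2 rose and F6'H1 and AT5G43520 fell, where 3.24% rose and 2.23% fell. At an unadjusted p under 0.05, 5 were higher and 5 lower in each line, and DESeq2 called 2 higher and 3 lower in OE1 and 3 higher and 2 lower in OE5. Of the other 539 genes, 95 (17.63%) rose and 6 fell after NaCl in OE1, and 118 (21.89%) rose and 2 fell in OE5. The MG libraries lay above the NaCl libraries without overlap for 20 of the 30 genes in OE1 and 17 in OE5, where 9.04% and 7.9% of the genes tested did.

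PELPK1 was at 41.8, 101 and 131 CPM in OE1 mock and at 293, 269 and 282 CPM after NaCl, and at 47.4, 88.4 and 41.8 CPM in OE5 mock against 413, 171 and 237 CPM. It rose by 1.45 ± 0.31 in OE1 (edgeR adjusted p = 0.00409) and by 2.13 ± 0.32 in OE5 (edgeR adjusted p = 7.58e-05), and was at 345, 209 and 359 CPM in WT NaCl and 294, 298 and 522 CPM in glyI2 NaCl. F6'H1 was at 17.99, 13.1 and 26.7 CPM in OE1 mock and at 8.46, 11.1 and 9.79 CPM after NaCl, and at 21.3, 23.1 and 15.95 CPM in OE5 mock against 9.30, 8.03 and 7.42 CPM. It fell by 1.17 ± 0.28 in OE1 and by 1.39 ± 0.29 in OE5 (edgeR adjusted p = 0.0126 and 0.00297), so this gene moved in opposite directions after NaCl and MG in the same lines. AT5G43520 fell by 2.16 ± 0.47 in OE1 and by 1.92 ± 0.47 in OE5. WIH3 fell by 1.2 ± 0.31 in OE1. LAC13 and LOX2 rose in OE5 by 1.04 ± 0.31 and 1.82 ± 0.54. In OE1 the change of LOX2 was 1.74 ± 0.535 and did not pass (edgeR adjusted p = 0.0531). It passed in OE1 with replicate blocks (edgeR adjusted p = 0.0226) and in DESeq2 (adjusted p = 0.016). The change of LAC13 in OE1 was 0.49 ± 0.30 (edgeR adjusted p = 0.454).

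Of these NaCl calls, AT5G43520 held in OE1 under every alternative and F6'H1 and PELPK1 held in OE5. WIH3 lost its call in OE1 without mock replicate 2 or 3 or NaCl replicate 2 or 3 (edgeR adjusted p of 0.0533 to 0.0864), F6'H1 in OE1 without NaCl replicate 1 or without the libraries low in CCA1, and AT5G43520 in OE5 without mock replicate 1 or NaCl replicate 3. LAC13 lost its call in OE5 without any one of the 3 mock libraries or NaCl replicate 1 or 3 (edgeR adjusted p of 0.0846 to 0.151), and LOX2 without any one of the 3 mock libraries or NaCl replicate 2 or 3 (0.0614 to 0.176). Without the 7 libraries low in CCA1, WIH3 in OE1 (0.114) and LAC13 and LOX2 in OE5 (0.105 and 0.111) also lost their calls. With only the compared groups in the fit, PELPK1 and WIH3 in OE1 and AT5G43520, LAC13 and LOX2 in OE5 lost theirs (0.0562 to 0.205).

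In WT and glyI2 the NaCl changes are a description, since they share the mock libraries that chose the genes. LOX2 was highest in NaCl in every genotype, at 770, 563 and 1403 CPM in WT, 532, 639 and 1591 CPM in glyI2, 507, 705 and 992 CPM in OE1 and 421, 663 and 1015 CPM in OE5. In each genotype the lowest LOX2 value in NaCl was above the highest in MG. SUS1 was at 48.3, 47.9 and 70.5 CPM in WT NaCl and at 60.1, 65.3 and 103 CPM in glyI2 NaCl. LAC13 was at 17.1, 17.41 and 26.4 CPM in WT NaCl and at 18.8, 22.1 and 43.9 CPM in glyI2 NaCl, so in glyI2 its NaCl libraries were above mock while its MG libraries were not. AT5G43520 stood at 1.91, 1.12 and 0.773 CPM in WT NaCl and at 0.959, 1.40 and 1.07 CPM in glyI2 NaCl, below every mock library of its genotype.

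In NaCl the 30 genes did not pass the test between glyI2 and WT. The edgeR test of glyI2 NaCl against WT NaCl called 0 higher and 0 lower, where 0.0145% of the genes tested were higher and 0.0145% lower. At an unadjusted p under 0.05 the count was 2, AT5G60760 at 0.66 ± 0.29 and SUS1 at 0.55 ± 0.27, and DESeq2 called 0. The median over the 30 was 0.19, against 0.01 over all genes tested.

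Of 25 lists of genes chosen with earlier results known, 3 hold one of the 30. In the jasmonate list of 20 genes, LOX2 was the member. Of the 19 tested genes of this list, 1 rose in OE1 and 1 in OE5 after MG, and in neither line was it LOX2. The median log2 fold change of the list was 0.08 in OE1 and 0.10 in OE5. Over all genes tested, 5.85% rose and 3.94% fell in OE1 and 4.74% rose and 4.09% fell in OE5, which is the background of the list counts that follow. On the scale of the rule the median of the jasmonate list after MG was 0.11 in WT and 0.42 in glyI2. In the hypoxia list of 12 genes, with SUS1 as the member, 3 of 12 rose and 0 fell in each OE line after MG. SUS1 was not among those that rose. In the iron list of 22 genes, F6'H1 was the member and 2 rose and 3 fell in OE1 of 21 tested, and 1 rose and 5 fell in OE5.

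Markers of root hairs moved with MG. The summed level of 11 root hair markers was 91.1 to 154 CPM in WT mock and 9.57 to 17.3 CPM in WT MG, and 54.4 to 319 CPM in glyI2 mock and 2.65 to 4.52 CPM in glyI2 MG. In OE1 MG it was 8.93 to 16.6 CPM and in OE5 MG 7.75 to 14.8 CPM. After MG 9 of the 11 fell in OE1 and 10 in OE5 (edgeR, adjusted p under 0.05), where 3.94% and 4.09% of the genes tested fell. PRP1 was at 0 in WT MG, PRP3 in glyI2 MG and XTH26 in OE1 MG. The 18 markers of photosynthetic tissue summed to 119900 to 140400 CPM in WT mock and 117400 to 154200 CPM in WT MG, and to 57450 to 156300 CPM in glyI2 mock and 82370 to 110100 CPM in glyI2 MG. In OE1 they summed to 57530 to 157000 CPM in mock and 128000 to 154900 CPM in MG, and in OE5 to 68610 to 148500 CPM and 111300 to 146000 CPM. The mock and MG ranges overlapped in every genotype. In glyI2 the overlap came from mock replicate 3 alone, a library low in CCA1, at 57450 CPM. The other glyI2 mock libraries, at 156300 and 119100 CPM, were above every glyI2 MG library. The 15 markers of endodermis and suberin summed to 178 to 213 CPM in WT mock and 217 to 281 CPM in WT MG, and to 151.5 to 199.8 CPM in glyI2 mock and 142 to 186 CPM in glyI2 MG. In OE1 they summed to 138 to 234 CPM in mock and 221 to 232 CPM in MG, and in OE5 to 124 to 199.6 CPM and 188 to 208 CPM. All WT MG libraries were above all WT mock libraries for this sum, while in glyI2, OE1 and OE5 the groups overlapped. In OE1 the overlap came from mock replicate 3 alone, a library low in CCA1, at 234 CPM. The other OE1 mock libraries, at 138 and 146 CPM, were below every OE1 MG library. From mock to MG the median sum went from 187 to 245 CPM in WT and from 146 to 224 CPM in OE1. It went from 169.5 to 196.5 CPM in OE5 and from 176 to 149 CPM in glyI2. The sum holds genes that moved in opposite directions. Of the 15, 4 rose and 6 fell in OE1 after MG, and 3 rose and 6 fell in OE5 (edgeR, adjusted p under 0.05). Over all genes tested, 5.85% rose and 3.94% fell in OE1, and 4.74% rose and 4.09% fell in OE5. The part of these tissues in the values of the 30 genes was not tested.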

How the data were processed

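The authors deposited a whole-number count and an FPKM value per gene for each library. Per the submitters' processing notes the tools included HISAT2 2.0.4 and HTSeq with TAIR10, with the strand setting of counting not given in the sources used here. The same notes name SICER and ChIPseeker, and 3 chromatin samples are not analysed here. FPKM values, per the deposited tables, were used to compare levels between genes; all other values come from the deposited counts, as CPM of the column sum.

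The members and lists were chosen with earlier results of these data known. Counts were tested with edgeR 4.0.16 in R 4.3.3 (TMM, filterByExpr, robust quasi-likelihood F test, 1 fit of 12 groups, Benjamini-Hochberg over 20748 genes, adjusted p under 0.05). Alternatives were RLE scaling, no filter, DESeq2 1.42.0, only the compared groups, replicate number as a block, leaving out the 7 libraries low in CCA1, and leaving out each library; for the choice of genes, a pseudocount of 5 CPM and TMM-scaled CPM. The scripts were tested on simulated data. Total counts of 21024878 to 22383131 per library limit precision for genes of few counts. Floors of 3 counts cover counting error only.

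The text names the 20 genes of largest WT change with at least 5 CPM in WT MG and no overlap with mock, up to 8 of lowest p per direction in each tested comparison, the genes at the thresholds, members of lists, and check genes. The reference table (TAIR10.1) matched 31912 of 32678 locus tags and was used for names and overlaps.

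Same-numbered replicates deviated together, with correlations of 0.278, 0.555 and 0.197 for OE5 MG and mock, 0.386, 0.131 and 0.734 for OE5 NaCl and mock, and 0.237, 0.777 and 0.722 for glyI2 NaCl and WT NaCl. By the rule of every pair over 0.1 the numbers were taken to pair the samples there. The labels do not say what a number marks. For OE5 NaCl and mock, and for glyI2 NaCl and WT NaCl, replicate 3 of both groups was among the 7 libraries low in CCA1. The part of this in the correlations was not tested, and libraries of different number were not compared. In the OE1 comparisons not every pair was over 0.1.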

Additional observations from a re-analysis of the deposited data

Results flagged for a closer look

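For 3 of the 30 genes every WT library was above mock after MG and every glyI2 library was below it, as for 0.183% of the genes tested. The glyI2 change minus the WT change, on the scale of log2 of mean CPM plus 1, was -3.00 for NANA, -4.16 for GLP4 and -1.41 for AT2G35730. The rise in WT and the limit on the glyI2 change both chose the genes, from these same libraries. The count and the differences are therefore a description, and the difference was not tested here as a result. Among the 9 MG libraries of WT, OE1 and OE5, NANA was at 67.8 to 118 CPM and GLP4 at 15.2 to 51.0 CPM. AT2G35730 stood at 2.97, 2.63 and 2.15 CPM in WT MG and at 0.320, 0.280 and 0.183 CPM in glyI2 MG. Its separation in glyI2 rests on few counts, the lowest mock library and the highest MG library each holding 7.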

How the results depend on the processing

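The count of genes higher after MG was 19 to 23 in OE1 and 17 to 26 in OE5 over all alternatives, within 1.5 times the main count of 23 in each. The counts after NaCl are small and moved. With the replicate block, OE1 NaCl gave 3 higher and 5 lower, against 1 and 3, and the pairing by number did not hold for every pair of OE1. For OE5, where it did, the block gave 25 higher after MG and 4 higher and 3 lower after NaCl, against 23, 3 and 2, and it called 0 genes between glyI2 NaCl and WT NaCl. Without the 7 libraries low in CCA1, OE1 NaCl gave 3 higher and 1 lower. With only the compared groups in the fit, OE1 NaCl gave 0 higher, and OE5 NaCl gave 1 higher and 1 lower. DESeq2 gave 2 higher in OE1 NaCl. Leaving out 1 library gave 1 to 2 higher in OE1 NaCl, 1 to 2 higher in OE5 NaCl and 1 to 2 lower in OE5 NaCl. The choice of genes itself moved: a pseudocount of 5 CPM left 16 genes, TMM-scaled CPM gave 50 that include all 30, and leaving out 1 library gave 27 to 35. Apart from the fewer samples or genes that some alternatives use, the cause was not tested. Of 55 single-gene calls, 34 held under every alternative, and none of the 55 changed direction where a value was given; AT5G38910 in OE5 MG had none with only the compared groups in the fit.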
